A study of Danio rerio with 69 samples.

Results

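The cytoplasmic ribosomal proteins are the 74 genes of the 8793 genes on the zebrafish array whose symbol names a protein of the cytosolic ribosome. A probe set was taken when the platform annotation gave it a single gene symbol that starts with rpl or rps and a digit, or with rplp, or that is rpsa. The S6 kinases (rps6k) were left out, as they phosphorylate a ribosomal protein and are none themselves. This found 79 probe sets, and for the 4 genes with more than 1 (rpl3, rpl21, rps27.1 and rps19bp1) the probe set of highest mean level was kept. By symbol, 42 of the 74 genes were assigned to the large subunit, rpl7l1 among them. Of the others 3 were assigned to the lateral stalk (rplp0, rplp2 and rplp2b) and 28 to the small subunit. The remaining gene, rps19bp1, meets the name rule but encodes a nucleolar partner of Rps19 rather than a subunit. The stalk gene rplp1 was not among the genes found, and rpl32 was left out because its probe set also carries the symbol kank1a.

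A ribosome has a small subunit, which reads the mRNA, and a large subunit, which joins the amino acids. Each subunit needs its proteins in equal copy number, and the stalk of the large subunit, which recruits the elongation factors, is the exception in carrying several copies of the acidic P proteins. The mRNAs of vertebrate ribosomal proteins begin with a terminal oligopyrimidine (TOP) tract through which the growth regulator mTOR controls their translation together, and ribosome production is high in growing and dividing cells.

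The pineal gland is a photoreceptive, melatonin-producing organ on top of the brain. Glands were dissected by hand under GFP fluorescence from transgenic zebrafish that carry GFP under the aanat2 promoter, which the study describes as specific to the pineal gland, and the comparison tissue, called brain, was brain freed of the pineal gland and the eyes. Fish aged 3, 5 and 10 days, which the study calls embryonic and which are called larval here, and adults of 3 months and of 1–2 years were sampled at night and by day. They lived in 14 h light and 10 h dark at 28.5 °C. Total RNA was amplified into biotin-labelled cDNA and hybridised to 69 arrays, 1 array a sample. There were 38 pineal arrays (14 adult and 24 larval, 19 night and 19 day) and 31 brain arrays (12 adult and 19 larval, 16 night and 15 day), in 20 groups of 2 to 5 that the labels call biological replicates. A level below is the log2 of the intensity plus 16 after quantile normalization, and a difference is between 2 such levels, ± SE from the limma fit. A gene was called when its Benjamini-Hochberg adjusted p over all 15502 probe sets was below 0.05. These are bulk samples, in which fewer cells of a type and less RNA per cell cannot be told apart.

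The labels of tissue held against defining genes over all ages. The melatonin enzyme aanat2 was 3.66 ± 0.15 log2 units higher in pineal gland than in brain, and the pineal opsin exorh 4.12 ± 0.16 higher. The myelin gene mbpa was lower by a log2 difference of -4.36 ± 0.19 in pineal gland, whereas the glial gene gfap differed by -0.05 (limma adjusted p = 0.79). The 3′ to 5′ ratio of the GAPDH control probe sets, a measure of RNA integrity in which intact RNA gives a low value, ran from 1.02 to 17.2. It exceeded 3 on 11 arrays, of which 1 was adult pineal, 4 larval pineal, 4 adult brain and 2 larval brain. Except for 10-day pineal night replicate 2 (6.68), all of these were day arrays. High ratios in brain were thus confined to day arrays.

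Most ribosomal protein genes were among the brightest signals. Their median mean level over the arrays stood at the 99.5th percentile of all probe sets, and 71 of 74 lay above the 95th percentile. On single arrays the median percentile of the 74 genes ran from 96.8 to 99.6, and between 47 and 71 of them lay above the 95th. The dimmest were rps27l at the 56.9th, rps19bp1 at the 58.6th and rpl7l1 at the 79.7th percentile. The level of the 74 genes was also steadier between replicates than that of most genes, which are dimmer. The median within-group SD was 0.25 log2 units over the 74 genes, against 0.58 over all genes. The dimmest members had 0.62 (rps27l), 0.44 (rps19bp1) and 0.34 (rpl7l1), and the part of brightness in this comparison was not tested. A gene's deviation from its group mean correlated with the median deviation of the other 73 at a median r of 0.46 (range -0.56 to 0.84 over the genes, a description, since all genes share the same arrays), and 35 genes exceeded 0.5. The deviation of the members' median correlated with that of the log2 GAPDH ratio at r = -0.40 over the 69 arrays, again as a description.

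The median over the 74 genes on each array was lowest in adult brain. It ranged between 13.12 and 13.57 (median 13.32) on adult pineal arrays and between 13.22 and 13.90 (median 13.67) on larval pineal arrays. It ranged between 12.11 and 13.11 (median 12.65) on adult brain arrays and between 13.44 and 13.90 (median 13.82) on larval brain arrays. After quantile normalization all adult brain arrays therefore lay below all adult pineal arrays and all larval arrays, while adult and larval pineal arrays overlapped. The adult tissues overlapped under the other scalings, with 12.89 to 13.74 on adult pineal and 12.10 to 12.91 on adult brain arrays without scaling, and 12.42 to 13.75 on adult pineal and 11.92 to 13.12 on adult brain arrays after median centring. Adult brain stayed below all larval arrays, whose lowest was 13.29 without scaling and 13.33 after median centring. By age the mean in pineal gland was 13.51 ± 0.20 at 3 days (SD, n = 7), 13.50 ± 0.15 at 5 days (n = 9), 13.80 ± 0.06 at 10 days (n = 8), 13.31 ± 0.11 at 3 months (n = 6) and 13.33 ± 0.16 at 1–2 years (n = 8). In brain it was 13.62 ± 0.18 at 3 days (n = 7), 13.72 ± 0.13 at 5 days (n = 5), 13.87 ± 0.03 at 10 days (n = 7), 12.73 ± 0.23 at 3 months (n = 6) and 12.54 ± 0.44 at 1–2 years (n = 6). The 10-day arrays thus had the highest mean in both tissues, and the drop after it was steeper in brain.

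**Figure D1:**
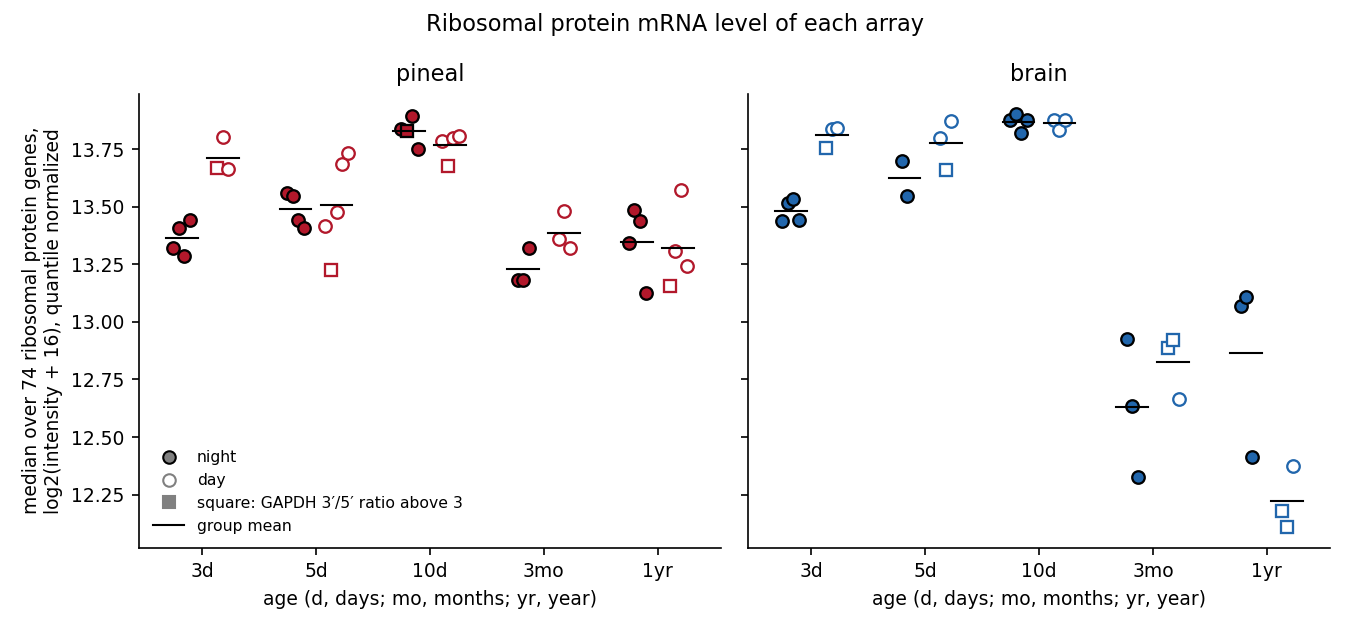
Median log2 level of the 74 ribosomal protein genes on each array (vertical axis) by age (horizontal axis), with pineal gland in the left panel and brain in the right; filled points are night arrays, open points day arrays, squares arrays with a GAPDH ratio above 3, and bars group means. All 12 adult brain arrays (12.11 to 13.11) lie below all 19 larval brain arrays (13.44 to 13.90), whereas the adult pineal arrays (13.12 to 13.57) overlap the larval ones (13.22 to 13.90).

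In brain, ribosomal protein mRNAs were lower in adults than in larvae almost without exception. Of 74 genes, 72 fell and none rose, and 35 of them fell at least 2-fold. Over all probe sets, 16.3% were called lower and 19.1% higher in this comparison, and 6.61% fell at least 2-fold. The median difference over the 74 genes was -0.95, a 1.93-fold lower level in adults, beside 0.05 over all 8793 genes. It was -1.14 with 73 genes lower without scaling between arrays and -1.03 with 73 lower after median centring.

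The stalk gene rplp2b had the largest fall. Its lowest, median and highest levels were 10.44, 11.12 and 11.73 on the 12 adult brain arrays, against 12.52, 13.04 and 13.32 on the 19 larval brain arrays, so that the groups did not overlap. The difference was -1.90 ± 0.10, or 3.72-fold (limma adjusted p = 1.5e-25). Its paralog rplp2 fell by 0.95 on the log2 scale and rplp0, the P0 protein on which the stalk is assembled, by 1.11 ± 0.10. All 3 stalk genes therefore fell, with a median difference of -1.11.

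Among large subunit genes, 41 of 42 fell, 16 of them at least 2-fold, with a median difference of -0.82. rpl15 had levels of 11.23, 11.90 and 12.33 (lowest, median and highest) on adult brain arrays, against 13.11, 13.62 and 13.99 on larval brain arrays, a difference of -1.77 ± 0.10 without overlap. rpl36 differed by -1.71 ± 0.18, rpl27a by -1.70 ± 0.15 and rpl10a by -1.57 ± 0.10. rpl29 was the large subunit gene that was not called, at -0.32, and its levels of 12.49 to 14.18 on adult arrays lay within the 12.62 to 14.45 of larval arrays but for the lowest. The smallest called falls were those of rpl12 (-0.33), rpl6 (-0.34) and rpl3 (-0.39). rpl13a, often used as a reference gene in quantitative PCR, fell by 0.50 on the log2 scale.

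All 28 small subunit genes fell, 17 of them at least 2-fold, with a median difference of -1.19. rps19, whose human counterpart is mutated in Diamond-Blackfan anaemia, had levels of 9.87, 10.58 and 11.26 on adult brain arrays, against 11.94, 12.26 and 12.94 on larval brain arrays, a difference of -1.81 ± 0.12. rps6, the target of S6 kinase, had 10.00, 10.80 and 11.59 on adult brain arrays, against 12.01, 12.46 and 13.32 on larval brain arrays, a difference of -1.70 ± 0.11. rps3, which lines the mRNA entry channel, differed by -1.72 ± 0.13, rps10 by -1.64 ± 0.11 and rps9 by -1.49 ± 0.12. rpsa, also known as the laminin receptor, fell by 0.95 and the reference gene rps18 by 0.39 ± 0.06. The nucleolar partner gene rps19bp1 was not called, at 0.35.

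Of the 74 genes, 26 had every adult brain array below every larval brain array, namely 12 genes of the large subunit, 13 of the small subunit and rplp2b. Over all probe sets this held for 2.01%. Across 73 genes, all but rps19bp1, the size of the difference in brain followed the brightness of the probe set. The Spearman correlation between mean level and difference was 0.73 (a description, as the genes share arrays and normalization). For the same comparison in pineal gland it was 0.11. In brain, the brighter the probe set, the smaller was the fall. The mean level was taken over all arrays, adult brain included, so a larger fall in adult brain itself lowers it. The second, dimmer probe set of rpl3 differed by -1.24, against -0.39 for the brighter one that was kept. The other probe sets of rps27.1 differed by -1.40 and -1.41, against -1.14. The second probe set of rpl21 went the other way. It was far dimmer (mean level 5.50, against 12.73) and differed by -0.35, not called, against -0.78. For rps19bp1 the dimmer probe set differed by 0.27, against 0.35, neither called. The part of signal saturation in this was not tested.

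Other cells moved with stage in brain too. Summed over 18 muscle genes, the intensity was 1157, 1541 and 2248 (lowest, median and highest) on adult brain arrays, against 12485, 73703 and 170362 on larval brain arrays, and 18 of 18 fell. Of 21 skin and keratin genes 20 fell, with sums of 3378 to 16410 on adult brain arrays, against 19794 to 79753 on larval brain arrays. Of 20 genes of dividing cells 16 fell (sums of 1632 to 2907 on adult and 1935 to 14300 on larval brain arrays), whereas 9 of 12 neuronal genes rose (66341 to 81478 on adult and 30809 to 56517 on larval brain arrays). The part of these cells in the ribosomal protein result was not tested.

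In pineal gland the same comparison gave a smaller and more uneven drop. Of 74 genes, 43 fell and none rose in adults relative to larvae, and rpl36 alone fell at least 2-fold. The shares of all probe sets called were 24.5% lower and 22.9% higher, and 7.13% fell at least 2-fold. The median difference was -0.23, beside -0.02 over all genes. This size depended on the scaling, as 60 genes fell with a median of -0.42 when arrays were not scaled and 68 fell with a median of -0.74 after median centring. Without scaling the median of all genes itself shifted by 0.27, so that the members stood at -0.69 relative to it under both alternatives, against -0.21 after quantile normalization.

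rpl36 had the largest fall in pineal gland. Its levels were 11.24, 12.11 and 12.52 (lowest, median and highest) on the 14 adult pineal arrays, against 11.43, 13.59 and 14.35 on the 24 larval pineal arrays, a difference of -1.27 ± 0.16 (limma adjusted p = 8.1e-10). The ranges overlapped at the low end of the larval arrays. rpl15 was the 1 gene with every adult pineal array below every larval one, which held for 0.877% of all probe sets. It had 12.23, 13.02 and 13.16 on adult pineal arrays, against 13.23, 13.62 and 14.07 on larval pineal arrays, a difference of -0.80 ± 0.09.

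After quantile normalization, large subunit genes fell in 30 of 42 cases in pineal gland (median -0.29). Small subunit genes fell in 12 of 28 (median -0.16) and stalk genes in 1 of 3 (median -0.13). This split, and the genes not called below, belong to that normalization, since 68 of all the genes fell after median centring (median -0.74). Besides rpl36 and rpl15, the largest falls were those of rps15 (-0.77 ± 0.08), rps6 (-0.71), rpl28 (-0.70), rps10 (-0.70), rpl7l1 (-0.66), rps19 (-0.63), rpl10 (-0.63) and rpl13 (-0.60). rpl7l1 encodes a relative of Rpl7 found in the nucleolus, and is counted by its symbol with the large subunit. The stalk genes parted, with rplp2b at -0.52 ± 0.09 called lower, rplp0 at -0.13 (limma adjusted p = 0.26) and rplp2 at 0.22 (limma adjusted p = 0.062) not called. Neither rpsa (-0.18), rpl13a (-0.14) nor rps18 (-0.07) passed the test. All 43 genes that fell in pineal gland also fell in brain, where they made up 59.7% of the 72. As 97.3% of the ribosomal protein genes fell in brain, this overlap was nearly fixed in advance. The same overlap over all probe sets was not counted.

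Markers of cell types moved with stage in pineal gland as well. All 14 genes of pineal photoreceptors were higher in adults (sums of 77379 to 147988 on adult and 8087 to 42543 on larval pineal arrays). Of 10 erythrocyte genes 7 rose and 2 fell (18596 to 63132 on adult and 548 to 8812 on larval pineal arrays), and of 13 immune genes 9 rose and 2 fell (13161 to 37944 on adult and 2748 to 12948 on larval pineal arrays). Of 12 neuronal genes 8 fell and 2 rose (20978 to 44459 on adult and 24281 to 63989 on larval pineal arrays), and of 20 genes of dividing cells 11 fell (3110 to 5370 on adult and 1596 to 15516 on larval pineal arrays). The part of these cells in the ribosomal protein result was not tested.

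**Figure D2:**
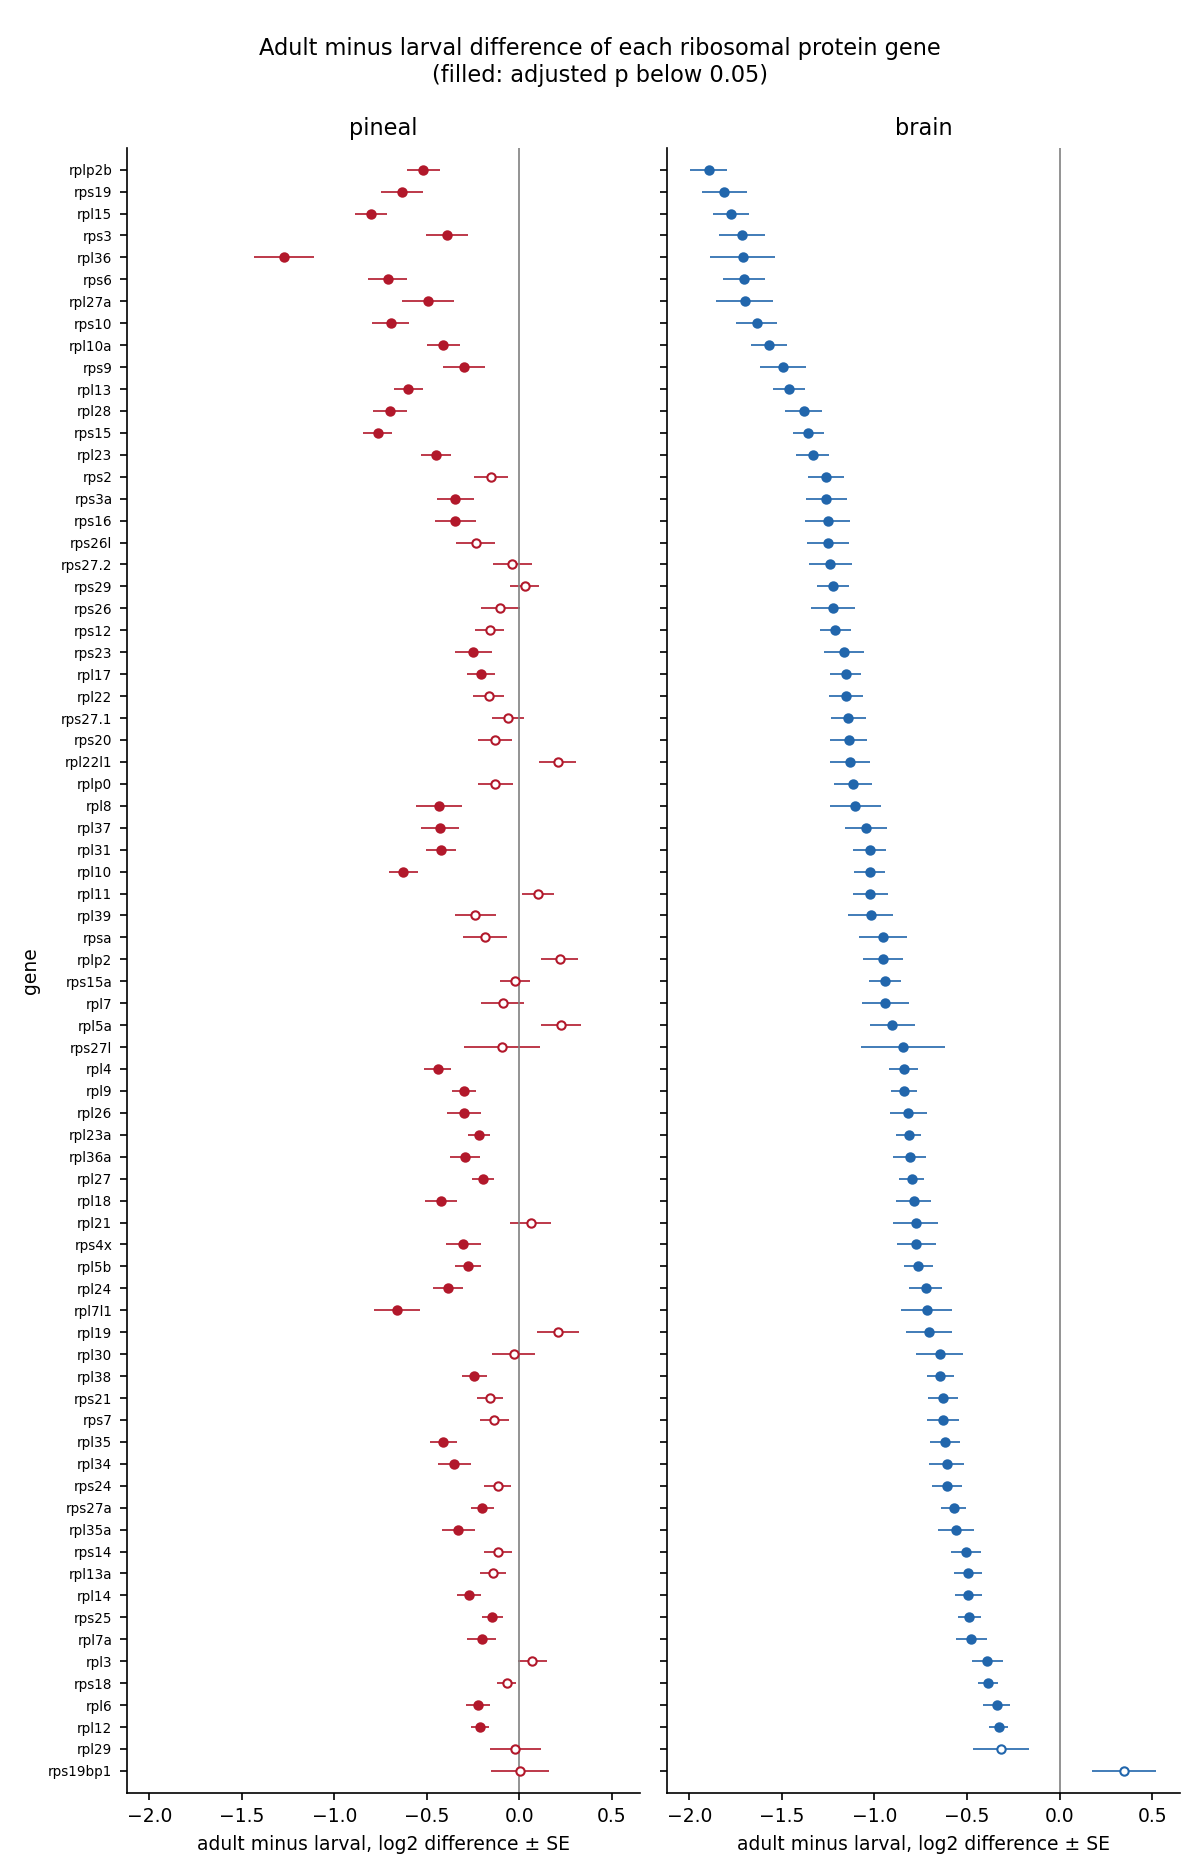
Adult minus larval log2 difference ± SE of each of the 74 genes (one row a gene, sorted by the brain difference), with pineal gland in the left panel and brain in the right; filled points have an adjusted p below 0.05. In brain 72 genes fell, with rplp2b lowest at -1.90, and in pineal gland 43 fell, with rpl36 lowest at -1.27; all called genes were lower in adults, and also without scaling (60 in pineal gland, 73 in brain) and after median centring (68 and 73).

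Adult pineal gland had higher ribosomal protein levels than adult brain. Of 74 genes, 62 were higher and none lower, and 12 were at least 2-fold higher. Among all probe sets 21.5% were called higher and 23.6% lower, and 11% were at least 2-fold higher. The median difference was 0.61, or 1.53-fold, beside -0.05 over all genes. It was 0.80 with 70 genes higher without scaling, where the median of all genes shifted by 0.23, and 0.45 with 53 higher after median centring, where it shifted by -0.12. This comparison uses the same adult brain arrays as the comparison of adult with larval brain.

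rplp2b again led, with 11.81, 12.28 and 12.69 (lowest, median and highest) on adult pineal arrays, against 10.44, 11.12 and 11.73 on adult brain arrays, a difference of 1.22 ± 0.10 (limma adjusted p = 5.1e-16) without overlap. rps27.1, a zinc-finger protein of the small subunit, had 12.86, 13.31 and 13.59 on adult pineal arrays, against 11.60, 12.18 and 12.86 on adult brain arrays, a difference of 1.15 ± 0.10. The groups came close but did not overlap. rpl10a and rps2 were the other 2 genes with all adult pineal arrays above all adult brain arrays. These 4 genes are 5.41% of the ribosomal protein genes, a share near the 4.6% of all probe sets with such separation.

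The stalk genes rplp0 (0.79), rplp2 (0.90) and rplp2b were all higher, as were 27 of 28 small subunit genes (median 0.73) and 32 of 42 large subunit genes (median 0.49). After rplp2b the largest differences were those of rpl27a (1.17), rps19 (1.17), rps3 (1.16), rps29 (1.16 ± 0.09), rps27.1, rps9 (1.14), rpl22l1 (1.14), rps27.2 (1.08) and rps6 (1.07). rpsa was 0.72, rpl13a 0.32 and rps18 0.37 higher. The 12 genes not called were rpl6, rpl7a, rpl7l1, rpl8, rpl12, rpl18, rpl29, rpl34, rpl35, rpl35a, rps27l and rps19bp1. Their differences lay between -0.0024 for rpl29 and 0.53 for rps27l. Across the same 73 genes the difference was larger for dimmer probe sets, at a Spearman correlation of -0.64 between mean level and difference (a description). The mean level again included the adult brain arrays, so a low level there lowers the mean and raises the difference.

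Markers of other cells also differed between the adult tissues. Of 21 skin and keratin genes 20 were higher in adult pineal gland (sums of 39043 to 198104 on adult pineal and 3378 to 16410 on adult brain arrays). Of 13 immune genes 11 were higher (13161 to 37944 on adult pineal and 5348 to 9930 on adult brain arrays), of 10 erythrocyte genes 7, and of 20 genes of dividing cells 7. Of 12 neuronal genes 11 were lower (20978 to 44459 on adult pineal and 66341 to 81478 on adult brain arrays). The part of these cells in the ribosomal protein result was not tested.

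Over all ages together 40 of 74 genes were higher and none lower in pineal gland than in brain, with a median difference of 0.17, where 17.8% of all probe sets were called higher. This depended on the scaling, as 66 genes were higher with a median of 0.38 without scaling and 54 with a median of 0.28 after median centring. No gene reached 2-fold after quantile normalization. rps27.1 (0.50 ± 0.06), rps6 (0.47), rps19 (0.47), rpl36 (0.45), rpl27a (0.45), rps9 (0.43), rpl15 (0.42), rpl22 (0.41), rps29 (0.41) and rplp2b (0.39) led. rplp0 and rplp2 (0.20 each), rpsa (0.26) and rps18 (0.18) were higher too, and rpl13a at 0.11 was not called.

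In larvae the tissues were close, and the direction depended on the scaling. After quantile normalization 6 of 74 genes were lower and none higher in larval pineal gland than in larval brain, with a median difference of -0.09. Over all probe sets 8.92% were called lower and 7.7% higher. Without scaling 11 genes were higher and none lower (median 0.09), and after median centring 17 were higher and none lower (median 0.17), so no direction can be given to the family in larvae. The 6 lower genes were rpl8 (-0.48 ± 0.11, limma adjusted p = 0.0012), rpl19 (-0.30), rplp2 (-0.27), rps26l (-0.27), rpl17 (-0.24) and rpl3 (-0.22). rpl8 had levels of 11.44, 12.78 and 13.43 (lowest, median and highest) on larval pineal arrays, against 11.90, 13.17 and 13.90 on larval brain arrays, and the ranges overlapped widely. All 18 muscle genes were lower in larval pineal gland (sums of 727 to 35910 on larval pineal and 12485 to 170362 on larval brain arrays, median difference -4.20), and the part of muscle in this comparison was not tested.

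At single ages the difference between tissues appeared at 3 months. At 3, 5 and 10 days 1 gene each was called lower in pineal gland, namely rpl3 (-0.38), rpl38 (-0.36) and rpl8 (-0.71 ± 0.19), where 4.1%, 4.36% and 2.99% of all probe sets were called lower. Leaving out 1 array gave 0 to 1 genes at 3 days, 0 to 2 at 5 days and 1 to 3 at 10 days. At 3 months 50 genes were higher and none lower, where 14.6% of all probe sets were called higher, with a median difference of 0.50. The 8 genes at least 2-fold higher there were 10.8% of the members, the same share as the 10.9% of all probe sets. At 1–2 years 62 were higher and none lower, where 15.7% of all probe sets were called higher, with a median of 0.72. Here 16 were at least 2-fold higher, 21.6% of the members beside 10.9% of all probe sets. Under scaling alternatives chosen after seeing the data, 67 genes at 3 months and 69 at 1–2 years were higher without scaling, and 27 and 44 after median centring. The larval medians of -0.09 at 3 days, -0.13 at 5 days and -0.07 at 10 days turned to 0.10, 0.28 and 0.16 after median centring.

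**Figure D3:**
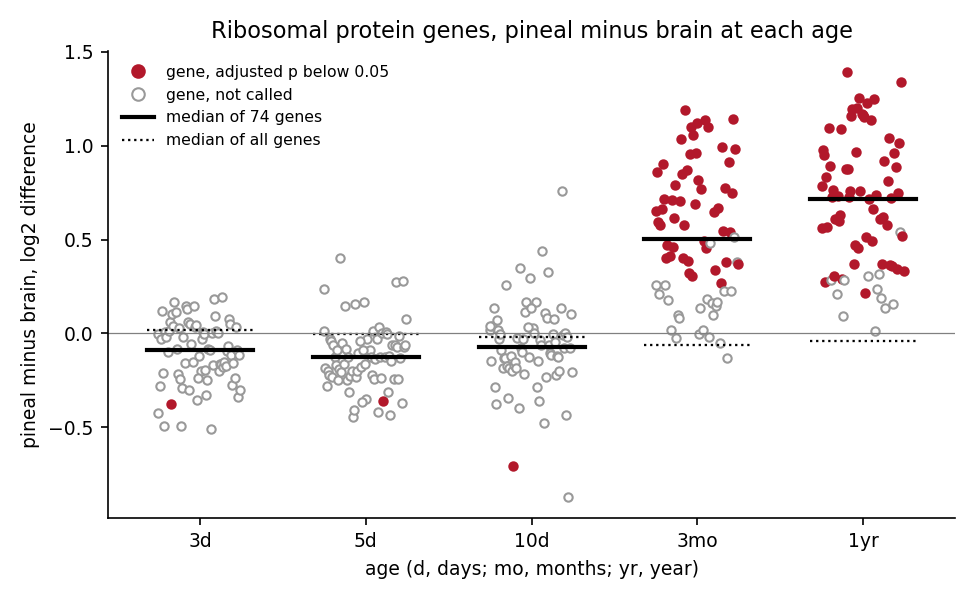
Pineal minus brain log2 difference of each of the 74 genes (dots) at the 5 ages, with the median of the 74 genes as a solid line and the median of all genes as a dotted line, after quantile normalization. The members' median is -0.09, -0.13 and -0.07 at 3, 5 and 10 days, values that turn to 0.10, 0.28 and 0.16 after median centring, and 0.50 at 3 months and 0.72 at 1–2 years, which stay positive there.

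The stage difference itself differed between the tissues. The adult minus larval difference in pineal gland minus that in brain was positive and called in 63 of 74 genes and negative in none. Of these 18 were at least 2-fold, and the median over the 74 genes was 0.68, beside -0.07 over all genes. Over all probe sets 18% were called positive and 18.9% negative, and 12.3% were positive by at least 2-fold. The count was 70 without scaling, where the median of all genes shifted by 0.27, but 20 after median centring, with a median of 0.28. Relative to the median of all genes the members stood at 0.44 under both alternatives, against 0.75 after quantile normalization. The 3 stalk genes and all 28 small subunit genes were called, and 32 of 42 large subunit genes. The largest differences of this kind were those of rplp2b (1.38 ± 0.13), rpl22l1 (1.34 ± 0.15), rps3 (1.32), rps29 (1.25 ± 0.12), rpl27a (1.21), rps27.2 (1.20), rps9 (1.19), rps19 (1.18), rplp2 (1.17) and rpl10a (1.16). rpl36, which fell in both tissues, had 0.44 ± 0.24 and was not called (limma adjusted p = 0.15). By the same measure 18 of 18 muscle genes were positive (median 4.45), as were 20 of 21 skin and keratin genes (3.17), 14 of 14 photoreceptor genes (2.25), 11 of 13 immune genes (1.65) and 8 of 10 erythrocyte genes (1.18), and 11 of 12 neuronal genes were negative (-2.10). Their part in the ribosomal protein values was not tested.

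The steps between neighbouring ages placed the drop between 10 days and 3 months. In brain 71 of 74 genes fell and none rose at 3 months relative to 10 days, 37 at least 2-fold, with a median of -1.01. Of all probe sets 10.9% fell in this step, and 6.58% fell at least 2-fold. rpl36 fell furthest there, by 2.31 ± 0.27 on the log2 scale, and rplp2b fell by 1.79. In pineal gland 43 genes fell, 6 of them at least 2-fold, and rpl22l1 rose, with a median of -0.35. Over all probe sets 17.4% fell, 10% at least 2-fold, and 16.5% rose. rpl36 (-1.86), rpl15 (-1.13) and rps15 (-1.03) fell furthest, and rpl22l1 differed by 0.82 ± 0.16. After median centring 66 genes fell and none rose. Between 3 months and 1–2 years no gene was called in pineal gland, where 0.174% of all probe sets were called and 5 of 74 had an unadjusted p below 0.05. None was called in brain, where 0.0839% were called and 17 of 74 had an unadjusted p below 0.05. With array weights in limma 16 were lower in brain at 1–2 years.

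Within larval life a minority of the genes rose. At 10 days relative to 3 days 18 genes rose and 1 fell in pineal gland (11.7% of all probe sets were called higher and 12.2% lower), and 16 rose and 1 fell in brain (10.5% higher and 10.8% lower). The medians were 0.23 in pineal gland and 0.15 in brain, beside -0.02 and -0.01 over all genes. Of the called genes, 10 moved the same way in both tissues. This is 52.6% of the 19 in pineal gland and 58.8% of the 17 in brain. The same overlap over all probe sets was not counted. rpl36 (0.74), rpl27a (0.68), rps26l (0.59), rpl8 (0.54), rps26 (0.53), rps3a (0.53), rpl11 (0.48), rps9 (0.47), rpl39 (0.44) and rpl22 (0.42) rose furthest in pineal gland. In brain these were rpl29 (0.85), rps26l (0.79), rpl8 (0.75), rpl39 (0.70), rpl37 (0.68), rps26 (0.60), rps16 (0.54), rpl18 (0.48), rplp2 (0.48) and rps15 (0.46). rpl29 had levels of 13.68, 14.20 and 14.45 (lowest, median and highest) on 10-day brain arrays, against 12.62, 12.89 and 14.22 on 3-day brain arrays, so the highest 3-day array lay within the 10-day range. Rpl11 joins the 5S RNA particle of the large subunit with Rpl5. In pineal gland 16 genes were higher and 1 lower at 10 days relative to 5 days (7.37% of all probe sets higher and 8.33% lower), and 3 were lower and none higher at 5 days relative to 3 days (2.79% lower). Leaving out 1 array moved the pineal count of 19 between 3 and 10 days to 10 without 3-day pineal day replicate 1, to 12 without day replicate 3 and to 11 without night replicate 3. It was 29 without scaling, 29 when the fit took the GAPDH ratio as a covariate, 9 with array weights, and 6 when median centring was joined to removal of arrays with a GAPDH ratio above 3. Over the same days 17 of 20 genes of dividing cells fell in pineal gland (sums of 1596 to 4457 on 10-day and 6193 to 15516 on 3-day pineal arrays) and 17 of 20 in brain (1935 to 3030 on 10-day and 7156 to 14300 on 3-day brain arrays). In brain 13 of 18 muscle genes fell too (12485 to 73703 on 10-day and 60019 to 134962 on 3-day brain arrays). The part of these cells in the ribosomal protein values was not tested.

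The gene that fell in both tissues during this time was rpl22l1. It encodes a paralog of Rpl22, an RNA-binding protein of the large subunit, and in mouse Rpl22 represses the mRNA of its paralog. Its levels were 11.33, 12.28 and 12.62 on 10-day pineal arrays, against 12.49, 12.91 and 13.28 on 3-day pineal arrays, a difference of -0.81 ± 0.15. In brain they were 12.24, 12.46 and 12.82 on 10-day arrays, against 12.77, 13.22 and 13.52 on 3-day arrays, a difference of -0.70 ± 0.16. The 10-day and 3-day groups barely overlapped in either tissue. rpl22 had 13.49, 13.65 and 13.86 on 10-day pineal arrays, against 12.95, 13.12 and 13.58 on 3-day pineal arrays, and rose in both tissues (0.42 ± 0.13 in pineal gland and 0.36 ± 0.13 in brain). In pineal gland rpl22l1 was back at 12.95 ± 0.13 at 3 months (SD, n = 6), whereas in brain it was 11.81 ± 0.30 (n = 6).

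Paralogs were compared by the log2 ratio of one to the other on each array, in 8 pairs and 4 comparisons, with permutation tests that were chosen after the values were seen and adjusted over the 32 tests. A change in this ratio shows unequal change and no order of levels. The ratio of rpl22l1 to rpl22 was -1.53 ± 0.45 at 10 days (SD, n = 8) and -0.30 ± 0.15 at 3 days (n = 7) in pineal gland, a difference of -1.23 (exact two-sided permutation p = 0.00016, adjusted p = 0.0012). In brain it was -1.11 ± 0.14 at 10 days (n = 7) and -0.03 ± 0.20 at 3 days (n = 7), a difference of -1.08 (exact two-sided permutation p = 0.00058, adjusted p = 0.0031). Between adults and larvae this ratio did not pass the test in either tissue. The differences were 0.38 in pineal gland (permutation, adjusted p = 0.093) and 0.04 in brain (permutation, adjusted p = 0.94). For every pair, the permutation tests between stages pooled arrays without weighting by age or sampling time. In pineal gland this ratio averaged -0.30, -0.46 and -1.53 at 3, 5 and 10 days. It averaged -0.37 at 3 months and -0.41 at 1–2 years, so the pooled test hides the 10-day dip.

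The 2 stalk paralogs parted between stages, and in brain also within larval life. At 10 relative to 3 days the ratio of rplp2b to rplp2 differed by -0.33 in brain (exact permutation test, adjusted p = 0.034). In pineal gland it differed by -0.41 and did not pass (exact permutation test, adjusted p = 0.29). The ratio of rplp2b to rplp2 differed between adults and larvae by -0.73 in pineal gland (two-sided permutation test, adjusted p = 0.00021) and by -0.92 in brain (two-sided permutation test, p = 1e-05, the smallest that 100000 permutations can give, adjusted p = 0.00016). The ratio of rps27.2 to rps27.1 was lower at 10 than at 3 days by a difference of -0.58 in pineal gland and -0.51 in brain (exact permutation tests, adjusted p = 0.0092 and 0.0031). The ratio of rpl5b to rpl5a was higher at 10 days by 0.41 in pineal gland and 0.42 in brain (exact permutation tests, adjusted p = 0.012 and 0.027), and lower in adult than larval pineal gland by a difference of -0.49 (permutation, adjusted p = 0.00016). In brain its stage difference was 0.14 (permutation, adjusted p = 0.48). The ratio of rpl7l1 to rpl7 was lower in adult than larval pineal gland by -0.51 (permutation, adjusted p = 0.034). No comparison of rps26l with rps26 or of rps27l with rps27.1 or rps27.2 passed. Sequence similarity within these pairs could let a probe set detect both paralogs, which was not tested.

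**Figure D4:**
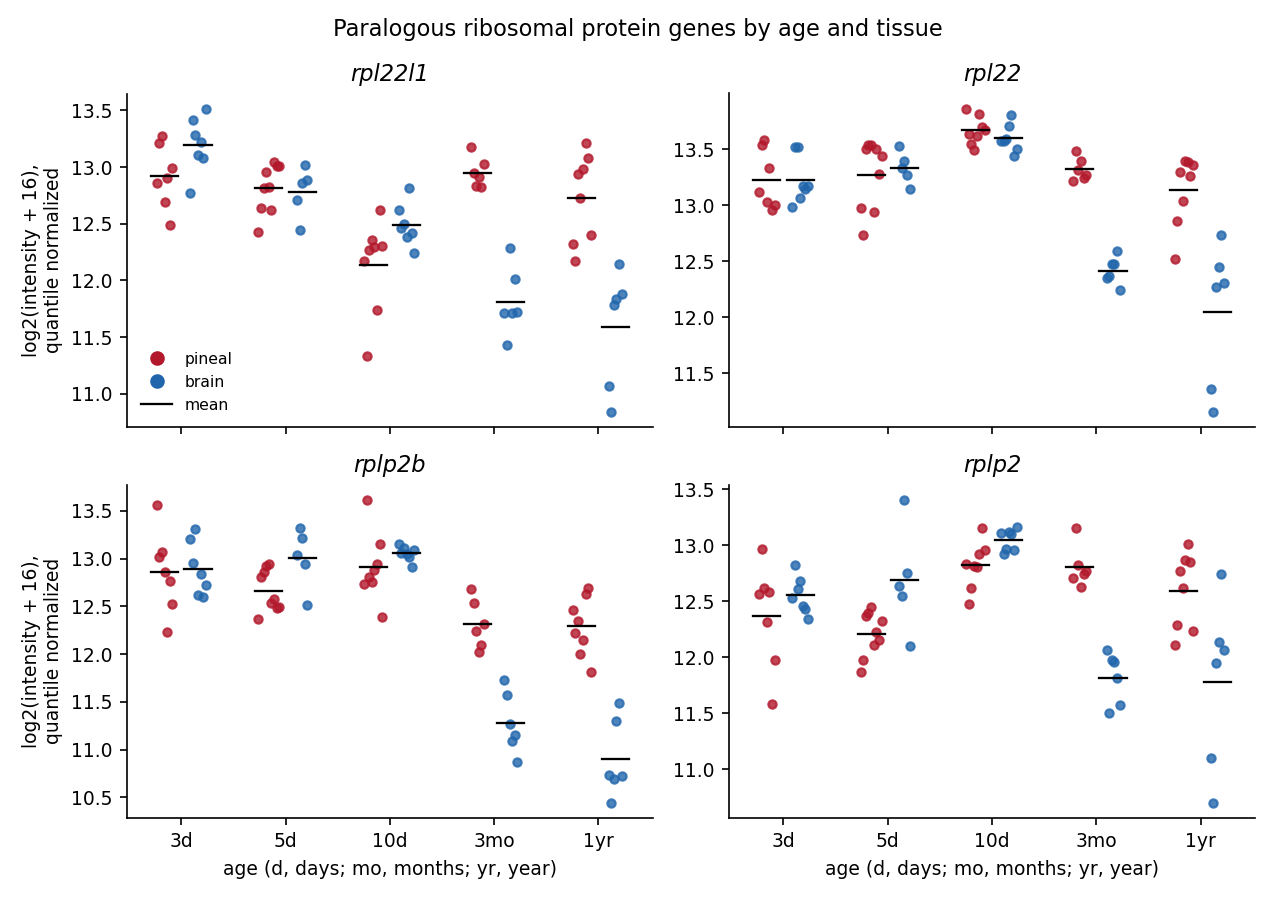
Log2 level of rpl22l1, rpl22, rplp2b and rplp2 on each array (vertical axis) by age, with pineal gland in red on the left and brain in blue on the right of each age, and bars at the means. rpl22l1 dips at 10 days in pineal gland (mean 12.13, against 12.95 at 3 months), and in adult brain all 4 genes lie low; levels of different genes are not comparable.

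Over all ages no ribosomal protein gene differed between night and day in pineal gland by the test, and 11 of 74 did in brain. In pineal gland no gene was called (12 of 74 had an unadjusted p below 0.05, and 2.64% of all probe sets were called). In brain 5 genes were higher and 6 lower at night, where 0.374% of all probe sets were called higher and 0.548% lower. The higher ones were rpl7 (0.50), rpsa (0.48), rpl5a (0.47), rps4x (0.46) and rps27a, which encodes a ubiquitin fusion (0.25). The lower ones were rpl36 (-0.78 ± 0.17), rps26l (-0.50), rpl39 (-0.49), rps16 (-0.44), rpl34 (-0.35) and rpl31 (-0.35). Over all ages the split in brain was 0 higher and 5 lower without scaling, 0 higher and 1 lower after median centring, and 19 higher and 15 lower with array weights in limma. Leaving out 1 array gave 2 to 18 genes, the most without 1–2 year brain day replicate 3, and 18 of the 69 arrays moved the count by over 1.5 times. No gene was called once arrays with a GAPDH ratio above 3 were left out or the ratio entered the fit. All brain arrays with such a ratio were day arrays, so night and day in brain also differ in this measure of RNA integrity. The difference in night effect between the tissues was called for no gene (limma, 8 of 74 with an unadjusted p below 0.05, 0.129% of all probe sets called).

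At single ages 2 groups of arrays stood out. At 3 days 6 genes were lower and none higher at night in pineal gland, where 0.581% of all probe sets were called lower, 0.529% at least 2-fold. They were rpl36 (-1.51 ± 0.36), rpl8 (-1.29 ± 0.28), rps26l (-1.05 ± 0.24), rpl26 (-0.78), rpl24 (-0.76) and rpl11 (-0.70). rpl8 had levels of 11.84, 11.71, 11.44 and 11.73 on the 4 night pineal arrays, against 13.44, 12.81 and 12.68 on the 3 day pineal arrays. rpl8 also had 12.20, 12.43, 11.90 and 12.58 on the 4 night brain arrays, against 13.90, 13.04 and 13.17 on the 3 day brain arrays. For rpl8 all night arrays thus lay below all day arrays in both tissues, but rpl8 was not called in 3-day brain. In pineal gland it was picked from the genes called on these same arrays, so its separation there is no further evidence. The share of all probe sets that part in this way was not counted. In 3-day brain rps26l was called lower at night, by at least 2-fold (-1.06), where 0.0387% of all probe sets were, and leaving out 1 array gave 0 to 2 genes. The median over the 74 genes was 13.36 ± 0.07 on night and 13.71 ± 0.08 on day pineal arrays (SD, n = 4 and 3), and 13.48 ± 0.05 on night and 13.81 ± 0.05 on day brain arrays (n = 4 and 3). The pineal count was 10 without scaling, 5 after median centring and 11 without the arrays of GAPDH ratio above 3. It fell to 2 without 3-day pineal day replicate 2 or 3, to 3 without night replicate 1 and to 1 without night replicate 3.

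In 1–2 year brain 23 genes were higher and none lower at night, 11 at least 2-fold, where 0.658% of all probe sets were called higher, 0.51% at least 2-fold. rpl30 led with 1.64 ± 0.28, ahead of rpsa (1.47) and rpl7 (1.41). rpl30 had levels of 14.40, 14.47 and 14.22 on the 3 night arrays, against 12.14, 11.84 and 14.18 on the 3 day arrays. Day replicates 1 and 2 had GAPDH ratios of 13.85 and 17.2. Day replicate 3, with a ratio of 1.27, was level with the night arrays for rpl30. The family median on day replicate 3 was 12.37, below all night arrays, against 12.18 and 12.11 on day replicates 1 and 2. On night replicates 1, 2 and 3 the family median was 13.07, 13.11 and 12.41. The median difference over the 74 genes was 0.53. It was 0.33 without day replicates 1 and 2, which leaves a single day array. Leaving out day replicate 1 alone gave 0.45 and day replicate 2 alone 0.43, and no gene was called in either of these fits. None was called either in a fit of the 1–2 year arrays alone, chosen after seeing the data, where the median was the same. The count was 36 without day replicate 3 (34 higher and 2 lower), 8 without night replicate 1 and 2 without night replicate 2 (all higher in these last fits). It was 2 without scaling and 0 after median centring. Tested over the 5 ages in an F-test chosen after seeing the data, the night effect varied with age for no gene in pineal gland (0.258% of all probe sets) and for rpl23 and rps25 in brain (0.129%), and for none in brain without the arrays of high GAPDH ratio.

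Other genes of translation and ribosome production moved in part with the ribosomal proteins. Of 15 other genes with TOP mRNAs, 8 fell and 2 rose in adult relative to larval brain (median -0.46). faua, which encodes Rps30 fused to a ubiquitin-like protein, fell by 1.18 on the log2 scale, tpt1, the growth-linked protein TCTP, fell by 1.61 ± 0.11, and rack1, a scaffold on the small subunit, fell by 1.15. The poly(A)-binding protein gene pabpc1b rose by 1.68 ± 0.16. In adult pineal gland relative to adult brain 9 of the 15 were higher and 2 lower (median 0.57), among them tpt1 (1.41), naca (0.69), faua (0.68) and cnbpa (0.60). Of 11 elongation factor genes 5 fell and 4 rose in adult relative to larval brain, with eef1g at -1.46 and eef1b2 at -1.41 but eef1a1a at 2.36 and eef1a1b at 2.19. Of 37 initiation factor genes 17 fell and 4 rose there (median -0.34). Initiation factors were 14 higher and 4 lower in adult pineal gland relative to adult brain, a split that turned to 2 higher and 10 lower after median centring. Over all probe sets 16.3% were called lower in adult relative to larval brain, and 21.5% higher in adult pineal gland relative to adult brain. The shares in the other direction are given above.

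Of the ribosome biogenesis genes, which encode the nucleolar factors that build ribosomes, a minority rose within larval life. At 10 days relative to 3 days 22 of 61 rose and 2 fell in pineal gland (median 0.34), beside 11.7% of all probe sets higher and 12.2% lower. In brain 14 rose and 4 fell (median 0.42), beside 10.5% higher and 10.8% lower, so that 37 in pineal gland and 43 in brain did not pass the test. The RNA helicase gene ddx21 rose by 3.08 ± 0.29 in pineal gland and by 2.83 ± 0.30 in brain, and nop53 by 1.81 and 1.78. The initiation repressor gene eif4ebp3l also rose, by 1.92 in pineal gland and 2.39 in brain. In adults relative to larvae 30 of 61 biogenesis genes fell and 3 rose in pineal gland (median -0.46), with ddx47 at -2.26, ddx21 at -2.17 and nop53 at -1.36. This became 16 lower and 7 higher without scaling. In brain 15 fell and 2 rose (median -0.32). Of all probe sets 24.5% were called lower in adults in pineal gland and 16.3% in brain, and the shares called higher are given above.

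The mitochondrial ribosomal proteins, which serve the separate ribosome of mitochondria, were mostly lower in adult pineal gland than in adult brain. Of 59 genes 40 were lower and 1 higher there (median -0.60), beside 23.6% of all probe sets lower and 21.5% higher. In adult relative to larval brain 13 rose and none fell (median 0.28), a share of 22% that lies near the 19.1% of all probe sets called higher. Without scaling between arrays 16 rose in adult brain and 32 were lower in adult pineal gland, and after median centring these counts were 24 and 53. mrps5 (-1.29), mrps18a (-1.27), mrpl3 (-1.27) and mrpl4 (-1.26) were among the lower ones in adult pineal gland. In adult relative to larval pineal gland 12 fell and 4 rose (median -0.15), against 5 lower and 6 higher without scaling. The 12 that fell are 20.3% of the list, below the 24.5% of all probe sets called lower there.

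**Figure D5:**
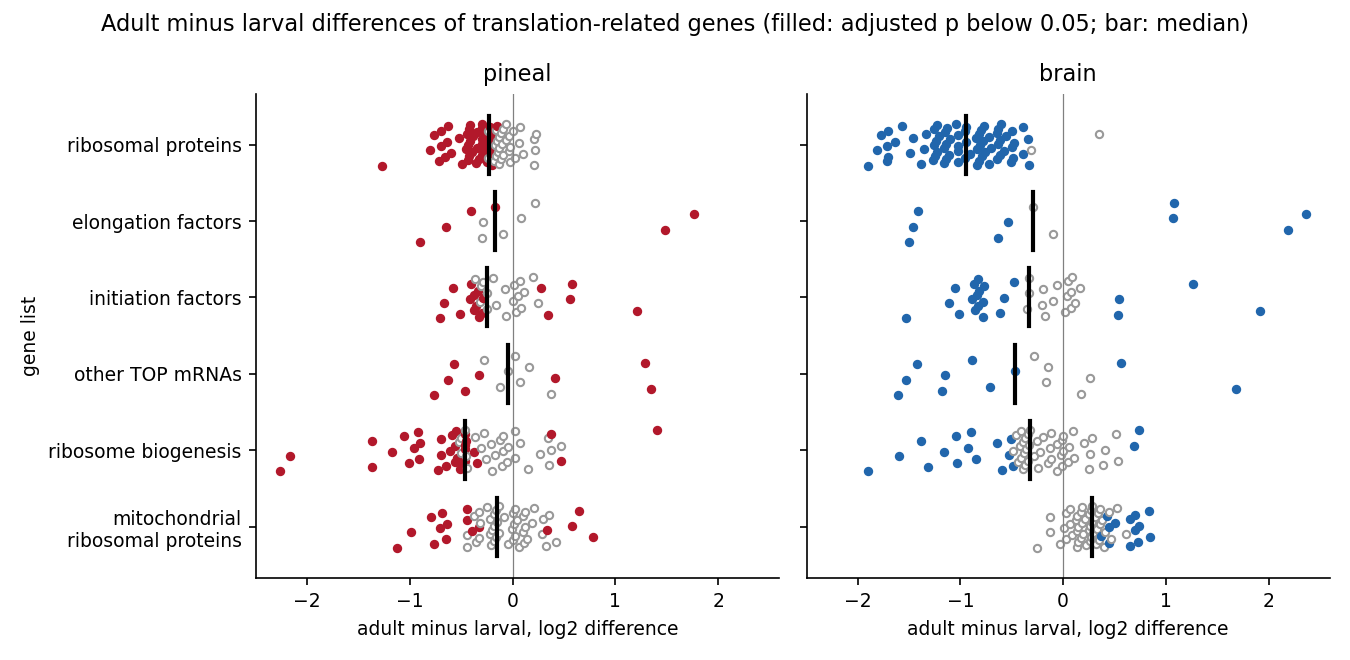
Adult minus larval log2 difference of each gene (dots) in the cytoplasmic ribosomal proteins and 5 other lists of translation genes, with pineal gland in the left panel and brain in the right, and bars at the medians, after quantile normalization. In brain the median is -0.95 for the cytoplasmic and 0.28 for the mitochondrial ribosomal proteins, with the same signs without scaling and after median centring; in pineal gland the medians are -0.23 and -0.15, and the mitochondrial one turns to 0.09 without scaling.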

How the data were processed

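Zebrafish pineal gland and brain were measured on the Affymetrix Zebrafish Genome Array. The deposited value per probe set is a linear intensity, already set by the authors to a common 2% trimmed mean (500.1 to 500.2 on every array, from the values). The probe summary and background correction are not given in the sources used here. Array medians of the intensity ran from 114.3 to 221.9, and the number of arrays limits the precision.

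From these, log2(intensity + 16) was computed, 115 control probe sets were removed and, since array medians spanned 0.87 log2 units, more than 0.5, arrays were quantile normalized (limma 3.58.1, R 4.3.3). Within groups, arrays correlated at 0.77 to 0.97. All 69 arrays entered 1 fit with a mean for each of 20 groups (49 residual degrees of freedom), contrasts, and empirical Bayes moderation with a trend. p-values were adjusted by Benjamini-Hochberg over 15502 probe sets, of which 10795 carry 1 gene symbol, 135 several and 4572 none. Adult means 3 months and 1–2 years, larval 3, 5 and 10 days, each age and sampling time weighted equally. The fit was tested on simulated data.

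The members, gene lists and tests were chosen with earlier results of these data known. Named in a comparison were up to 10 members of largest called rise and 10 of largest called fall, always rplp0, rplp2, rpsa, rpl13a, rps18 and paralogs, and at most 4 called genes of smallest adjusted p of each other list. Genes picked out for a single age, for not being called or for a small fall, and eif4ebp3l, were chosen after their values were seen. Alternatives were no scaling, median centring, other constants, a filter on dim probe sets, array weights, the replicate number as a block, the GAPDH ratio in the fit or as a filter, and leaving out each array.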

Additional observations from a re-analysis of the deposited data

Results flagged for a closer look

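The stage difference differed between pineal gland and brain, by the test of that difference itself, in 63 of 74 genes (median 0.68). After median centring 20 genes were called (median 0.28), and 13 when arrays with a GAPDH ratio above 3 were removed as well. The largest such differences, in log2 units, were 1.38 for rplp2b, 1.34 for rpl22l1, 1.32 for rps3, 1.25 for rps29, 1.21 for rpl27a, 1.20 for rps27.2, 1.19 for rps9, 1.18 for rps19, 1.17 for rplp2 and 1.16 for rpl10a.

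A single array lay far from the rest of its group in 4 of 72 combinations tested, a share near the 1 in 20 that chance gives. A combination was a gene, or the median over the members, and a group of at least 4 arrays. Smaller groups could not be tested. rplp2b was 12.36 on 5-day pineal day replicate 1, against 12.80 to 12.94 on the other arrays of that group. rplp2b was 13.62 on 10-day pineal day replicate 2, against 12.73 to 12.81 on the others. On the same array rpl7 was 13.08, against 13.88 to 13.91 on the others. That array had a GAPDH ratio of 10.38, the highest of the pineal arrays, and the part of RNA integrity in its values was not tested. rpl22l1 was 12.62 on 5-day pineal night replicate 1, against 13.01 to 13.04 on the others.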

How the results depend on the processing

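The counts of called members in adult brain relative to larval brain, in adult pineal gland relative to adult brain and at 10 relative to 3 days in brain stayed within 1.5 times the values above under every alternative run. Without scaling, 66 genes were higher in pineal gland than in brain over all ages, 11 were called in larvae (all higher, a reversal), 29 at 10 relative to 3 days in pineal gland, 2 at night in pineal gland and 5 at night in brain. After median centring the counts were 17 in larvae (all higher), 68 for stage in pineal gland, 20 for tissue by stage and 1 at night in brain. Adding removal of arrays with a GAPDH ratio above 3 to median centring, chosen after seeing the data, gave 11 in larvae (all higher), 70, 13, 6 at 10 relative to 3 days in pineal gland and 0 at night in brain; removal alone gave 0 at night in brain. With the GAPDH ratio in the fit they were 12 in larvae, 29 at 10 relative to 3 days in pineal gland and 0 at night in brain. Array weights gave 9 at 10 relative to 3 days in pineal gland, 16 for 1–2 years in brain, 34 at night in brain (a reversal of the balance) and 2 for tissue by sampling time, and a constant of 1 gave 7 at night in brain. Single genes that changed sign were rpl3 in larvae (0.0574 after median centring, 0.0164 with GAPDH removal as well) and, at night in brain under both choices together, rpl7 (-0.0472), rpl5a (-0.0319) and rps27a (-0.0129). The cause was not tested.

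Same-numbered pineal and brain arrays had a correlation of deviations above 0.1 in 11 of 31 pairs (median 0.07, range -0.02 to 0.37). The values were small but leaned to the positive side. The numbers were not taken to pair the samples over all ages in the main fit, which does not exclude a shared source. They did deviate together in all 3 pairs by day at 1–2 years (0.20 to 0.37). Over the ribosomal protein genes alone, the correlation by day was 0.76 to 0.82 at 1–2 years, 0.50 to 0.69 at 5 days and 0.34 to 0.72 at 3 days. By day it was -0.28 to -0.02 at 10 days and 0.07 to 0.17 at 3 months, and by night it ran from -0.20 to 0.54. Whether same-numbered arrays shared a source was not tested. The replicate number as a block (consensus correlation 0.12) gave 10 genes in larvae and kept other counts within 1.5 times. At 1–2 years, in fits chosen after seeing the data, the block gave 64 genes higher in pineal gland than in brain with all arrays, against 62 without it, and 59 with the arrays of that age alone, against 52 without it. Leaving out 1 array gave 36 to 48 genes over all ages, 2 to 9 in larvae, 60 to 65 in adults, 42 to 46 for stage in pineal gland, 72 to 73 in brain, 60 to 65 for tissue by stage, 10 to 22 at 10 relative to 3 days in pineal gland and 13 to 18 in brain, 0 to 3 for 1–2 years in brain, 0 to 2 at night in pineal gland and 2 to 18 in brain. The larval count was 3 without 3-day pineal night replicate 3 or 5-day brain day replicate 3 and 2 without 5-day brain night replicate 1. The 10-day count in pineal gland was 10, 12 and 11 without 3-day pineal day replicates 1 and 3 and night replicate 3. The night count in brain moved past 1.5 times without any of 18 arrays, all brain: it was 2 to 7 without 3-day day replicate 1 or night replicates 1 or 2, 5-day day replicate 2 or night replicates 1 or 2, 10-day day replicates 1, 2 or 3 or night replicates 1 or 2, 3-month day replicates 1 or 2 or night replicate 2, or 1–2 year day replicates 1 or 2 or night replicate 2, and 18 without 1–2 year day replicate 3. That array also gave the 3 genes for 1–2 years in brain. The night count in pineal gland was 1 without 3-day pineal night replicate 2, 5-day pineal night replicate 1 or 1–2 year brain day replicate 3, and 2 without 1–2 year pineal day replicate 4. Among single ages, 3-month brain had 7 genes lower at night without day replicate 3 and 3 without night replicate 1, against none with all arrays. Signal was high throughout, and how far saturation of bright probe sets limits the folds was not tested.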
